A study of Homo sapiens with 4 samples.

Results

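The genes described here were the protein-coding genes of the short arm of chromosome 10, a stretch whose RNA was reduced in 1 of the 2 libraries made from cells without BAP1. A gene was included when its GRCh37 start lay below 39 Mb on chromosome 10 and its mean count over the 4 libraries was 50 or more. Of the 151 protein-coding genes of the arm in the count files, 104 met both conditions, 46 fell below the count minimum and the 1 remaining gene was left out by the rule. These 104 genes are part of 57820 genes counted. The arm was selected on its low RNA level in the library tKO 1 relative to dKO, so the values of tKO 1 relative to dKO are given as a description, with no test.

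All libraries came from untreated HAP1 cells, a nearly haploid human line derived from a chronic myeloid leukaemia line and grown in IMDM with serum. The 2 dKO libraries were from cells with RING1A and RING1B knocked out, the ubiquitin ligases of PRC1. The 2 tKO libraries were from cells that in addition lacked BAP1, the enzyme that removes ubiquitin from histone H2A, so that all 4 libraries share the loss of RING1A and RING1B. The knockouts of BAP1 and RING1A were selected clones carrying a STOP cassette, and RING1B knockout cells had been bought. Whether both tKO libraries came from the same clone is not given in the sources used here. The comparison of tKO with dKO asks what loss of BAP1 changes once the mark placed by PRC1 is absent.

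BAP1 had 2046 and 2010 counts in dKO 1 and dKO 2, 158 in tKO 1 and 107 in tKO 2, so both tKO libraries carried the labelled loss. RING1, which encodes RING1A, had 12 to 17 counts in every library, and RNF2, which encodes RING1B, had 1102 to 1561. RNF2 RNA was thus well counted in all 4 libraries, so these counts do not show the labelled loss of RING1B. There is no library with intact RING1A and RING1B to compare with here. By western blot, the paper reported the mark placed by PRC1 as absent in both genotypes, which RNA counts do not measure. Counts in genes totalled 18455410 and 17990784 for dKO 1 and dKO 2 and 16413169 and 16054590 for tKO 1 and tKO 2. Of 5 haematopoietic markers (PTPRC, CD34, SPI1, GATA1 and ITGAM), 0 passed the expression filter, and none had more than 3 counts in any library. Levels are given as CPM, read counts scaled to a common library size with TMM factors. Ratios are log2 ratios of CPM with a prior count of 2, taken against the mean of the 2 dKO libraries.

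The short arm of chromosome 10 holds genes of unrelated function that share little but their position. It carries VIM, the intermediate filament protein of mesenchymal cells, ITGB1, the beta chain shared by many integrins, and the transcription factors KLF6, GATA3 and ZEB1. Other genes of the arm encode a subunit of the mitochondrial ATP synthase (ATP5F1C), the platelet isoform of phosphofructokinase (PFKP), the replication factor MCM10 and the nonsense-mediated decay factor UPF2. RNA from many genes follows the number of templates, while some genes are held at a set level by feedback, which is why a gene by gene view of a reduced arm is of interest. A log2 ratio of -1 stands for 50% of the level in dKO and is called the half-dose level below. In bulk RNA, fewer cells carrying a transcript and less of it per cell cannot be told apart.

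Promoter sequences of 4 members are shown because they mark the extremes of the arm. VIM had the highest CPM, GDI2 had the highest CPM per kb of exon, TASOR2 had the highest ratio in tKO 1, and ASB13 had the lowest ratio after CCDC7, a gene with few counts. Each is the 250 bases upstream of the first-listed RefSeq start, read 5' to 3' on the gene's strand, with its GRCh37 position found by exact match. They lie at chr10:17269990-17270239 (VIM, plus strand), chr10:5855398-5855647 (GDI2, minus strand), chr10:5726551-5726800 (TASOR2, plus strand) and chr10:5708559-5708808 (ASB13, minus strand). Capitals mark a GC box core (GGGCGG on either strand) or a CCAAT box (CCAAT on either strand).
VIM: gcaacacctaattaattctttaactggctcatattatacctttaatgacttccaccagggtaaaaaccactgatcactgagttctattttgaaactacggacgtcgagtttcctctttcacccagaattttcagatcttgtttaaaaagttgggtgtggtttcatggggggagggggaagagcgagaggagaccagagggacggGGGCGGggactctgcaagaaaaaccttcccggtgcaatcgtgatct
GDI2: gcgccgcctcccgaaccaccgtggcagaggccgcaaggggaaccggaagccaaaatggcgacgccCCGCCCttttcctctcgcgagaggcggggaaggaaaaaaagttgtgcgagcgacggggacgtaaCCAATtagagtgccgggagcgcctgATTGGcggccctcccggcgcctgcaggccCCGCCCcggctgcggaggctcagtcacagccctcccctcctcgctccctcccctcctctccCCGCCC
TASOR2: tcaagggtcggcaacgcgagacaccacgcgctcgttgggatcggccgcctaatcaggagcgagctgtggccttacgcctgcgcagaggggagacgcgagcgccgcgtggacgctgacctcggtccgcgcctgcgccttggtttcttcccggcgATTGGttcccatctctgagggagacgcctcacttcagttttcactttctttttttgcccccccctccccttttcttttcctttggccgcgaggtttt
ASB13: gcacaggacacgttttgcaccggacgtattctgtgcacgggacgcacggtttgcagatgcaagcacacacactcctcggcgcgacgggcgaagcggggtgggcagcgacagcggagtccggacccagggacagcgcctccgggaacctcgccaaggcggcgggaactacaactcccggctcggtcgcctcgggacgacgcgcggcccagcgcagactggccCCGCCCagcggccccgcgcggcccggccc

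GDI2 showed 3 GC box cores and 2 CCAAT boxes in this window, VIM 1 GC box core, ASB13 1 GC box core and TASOR2 1 CCAAT box. RefSeq windows of 300 bases (250 upstream and 50 downstream of the start) were available for 97 of the 104 members. CCDC7, DNAJC1, HSPA14, NRP1, PARD3 and YME1L1 were among those without a window. A GC box core was present in 66.0% of the members' windows and in 44.6% of all 27305 windows, and a CCAAT box in 36.1% and 35.7%. The TATA box core TATAAA, searched on both strands like the others, was found in 4.12% of members and 12% of all windows. Members had a median of 29 CpG dinucleotides per window, against 14 over all windows. The set of all windows was not limited by counts, while members had a mean count of 50 or more. These shares and medians therefore do not set the arm apart from other genes with that count minimum, for which no windows were compared. Members whose window held a GC box core had a median log2 ratio of -0.98 in tKO 1 and those without one -0.96. For the CCAAT box the medians were -0.96 and -1.01, and for the TATA box core -1.01 (4 genes) and -0.98. The medians of the ratios are given as a description, and no difference between them was tested.

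In tKO 1 the 104 genes lay close to the half-dose level as a body. Their summed counts made up 0.786% and 0.788% of all gene counts in the dKO libraries, 0.403% in tKO 1 and 0.787% in tKO 2. The tKO 1 share was low and the other 3 shares were nearly equal. The median member stood at 50.6% of its dKO level in tKO 1, with a range from 31.2% for CCDC7 to 66.3% for TASOR2. On the log2 scale the median was -0.97, the middle of the distribution ran from -1.09 to -0.87 (interquartile range) and the SD over genes was 0.186. Every member was lower in tKO 1 than in both dKO libraries (104 of 104), and among the 11266 other protein-coding genes with the same count minimum 35.0% were. ACBD7 was the 1 member for which tKO 1 was not the lowest of the 4 libraries.

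**Figure D1:**
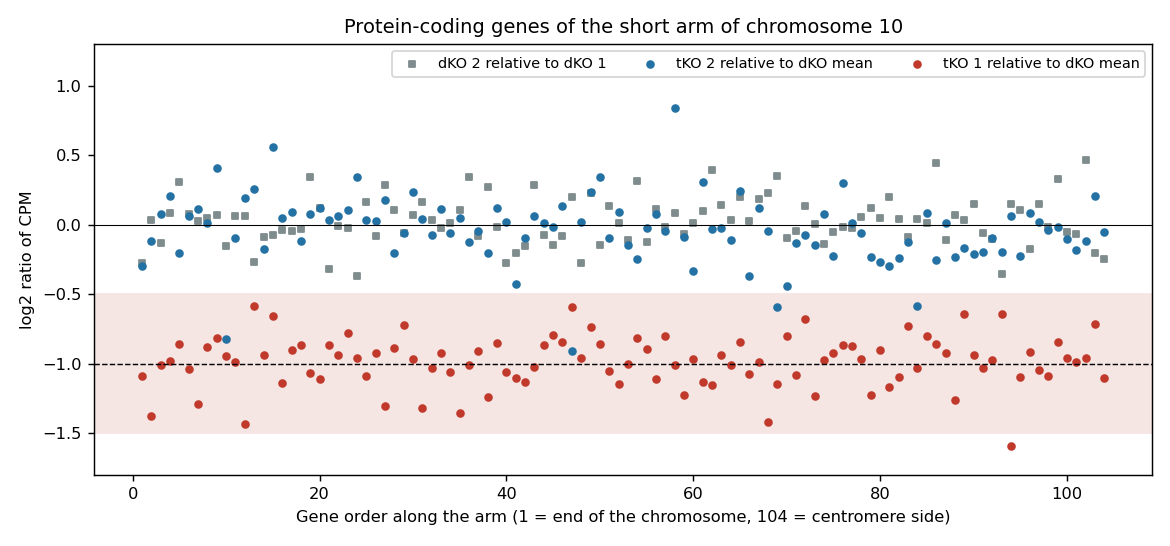
Each member in its order along the short arm of chromosome 10 (horizontal axis) with its log2 ratio of CPM (vertical axis) in tKO 1 against the dKO mean (red circles), in tKO 2 against the dKO mean (blue circles) and in dKO 2 against dKO 1 (grey squares). The dashed line is the half-dose level of -1 and the shaded band reaches 0.5 to each side of it. All 104 red circles lie between -1.59 and -0.59, while the blue circles and grey squares scatter around 0.

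By interquartile range, the members were spread around the half-dose level about as widely as other genes were spread around 0. The interquartile range of the tKO 1 ratios was 0.224 in members and 0.215 in the other 11266 protein-coding genes, whose median ratio was 0.00. The SD was 0.186 in members and 0.257 in the others, which contain strongly changed genes such as BAP1. Between the 2 dKO libraries, the members' ratios had a median of 0.02, an SD of 0.173 and a range from -0.37 to 0.47. The ratios of tKO 1 to tKO 2 had a median of -0.95, an SD of 0.302 and a range from -1.85 to 0.32. A ratio to the mean of 2 libraries and a ratio between 2 single libraries differ in their counting error, so these SDs are given side by side only.

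**Figure D2:**
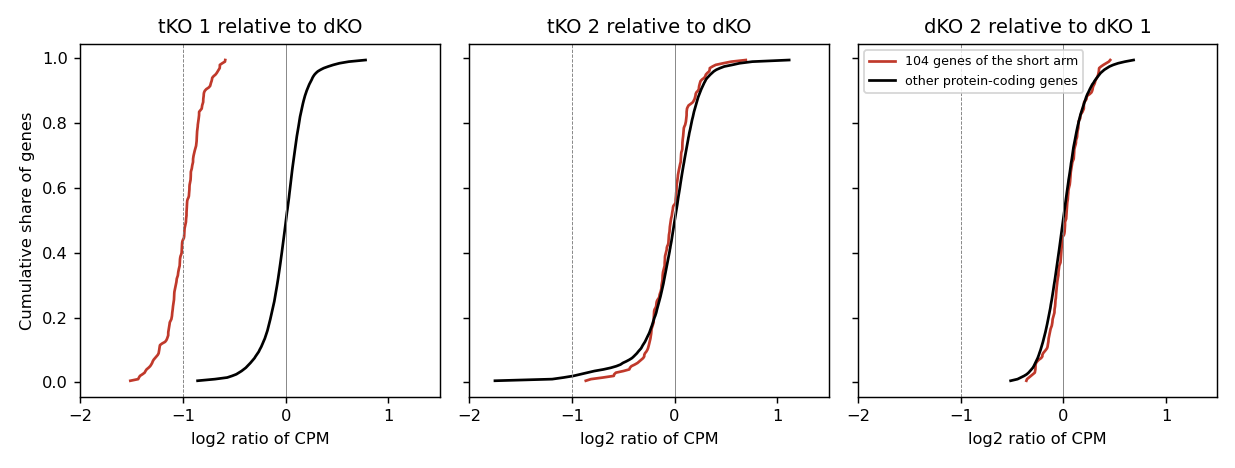
Cumulative share of genes (vertical axis, 0 to 1) at or below a log2 ratio of CPM (horizontal axis) for the 104 members (red) and the other protein-coding genes with the same count minimum (black), in tKO 1 against dKO, tKO 2 against dKO and dKO 2 against dKO 1. In tKO 1 the red curve, with a median of -0.97, has about the slope of the black curve, with a median of 0.00, and in the other panels the curves lie close together.

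Position within the arm did not order the ratios. The 24 members in the first 10 Mb had a median log2 ratio of -0.95, the 36 between 10 and 20 Mb -0.99, the 25 between 20 and 30 Mb -0.99, and the 19 between 30 and 39 Mb -0.96. Over the 104 members, the correlation of the tKO 1 ratio with position was 0.04 (Pearson) and 0.03 (Spearman). With exon length it was 0.07 and 0.04, and with level in dKO per kb 0.12 and 0.11, all of them on values from the same libraries.

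The reduction stopped between the last gene of the short arm and the first gene beyond the centromere. The last members, ZNF25, ZNF33A and ZNF37A (chr10:38383262-38439221), had log2 ratios of -0.96, -0.71 and -1.10 in tKO 1. The first protein-coding genes with the count minimum on the long arm, ZNF33B (start 43069633), BMS1 and RET, had ratios of 0.30, 0.11 and -0.37. ZNF33A and ZNF33B are closely similar genes on the 2 arms. ZNF33A had 64.9 and 56.3 CPM in dKO 1 and dKO 2, 36.8 CPM in tKO 1 and 69.8 CPM in tKO 2. Reads that fit both copies were counted for neither, so the count of each rests on sequence that differs between them. Over the 333 protein-coding genes of the long arm the median tKO 1 ratio was 0.02, and 9 of them lay below -0.5. Among all 11266 protein-coding genes outside the short arm, 3.94% lay more than 0.5 from 0, in either direction.

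Genes of the arm that are not protein-coding were low in tKO 1 as well. Of 9 such genes with a mean count of 50 or more, 8 lay below -0.5, with a median over the 9 of -0.98. The matching share was not taken over noncoding genes elsewhere, so the count is given as a description. MIR1915HG, a long noncoding RNA, had 272 and 251 counts in dKO 1 and dKO 2, 77 in tKO 1 and 283 in tKO 2, a log2 ratio of -1.57 in tKO 1. The exception was NAMPTP1, a processed pseudogene, which had 67, 75, 58 and 49 counts in the same order and a log2 ratio of -0.12. Processed pseudogenes resemble the spliced RNA of their parent gene, so the origin of these reads is uncertain.

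By the band set for departures, a log2 ratio more than 0.5 from -1, a single member departed. Above the band there were 0 members, below it CCDC7, a coiled-coil protein gene (chr10:32735068-33171802), which makes 0.962% of the members. Among the other protein-coding genes 3.94% lay more than 0.5 from 0 in tKO 1. CCDC7 had the lowest level per kb of the 104 members and only 72 and 79 counts in dKO 1 and dKO 2, 21 in tKO 1 and 70 in tKO 2. Its log2 ratio in tKO 1 was -1.59, with a 95% exact binomial interval from -2.41 to -1.01. The interval, like the others given here, covers counting error only. It also treats each read as a separate molecule, which copies made by PCR are not. With members of 200 counts or more on average, of which there were 91, the number of departures was 0. With dKO 1 or dKO 2 left out of the reference it was 4 or 2.

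With a band of 0.3 in place of 0.5, 13 members departed, 6 above and 7 below, or 12.5% of the members against 12.1% of the other protein-coding genes. The share was near the background, so the 13 genes are described and nothing is read from their number. By counting error alone, the interval of 33 members excluded -1, or 31.7%, with 20 above it and 13 below it. Among the other protein-coding genes the same interval excluded 0 for 42.5%. Between dKO 1 and dKO 2, libraries of the same genotype, the interval excluded 0 for 36 members (34.6%) and for 39.2% of the other genes. These intervals differ in width, since the members' counts summed to 66153 in tKO 1 and to 145149 and 141755 in dKO 1 and dKO 2. The 4 shares are therefore given side by side only, and nothing is read from their order. In 52 of the 104 members the distance from -1 in tKO 1 was larger than the difference between the dKO libraries. The matching share was not taken over other genes, so nothing is read from this count.

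The genes furthest above the half-dose level, chosen after their values were seen, were TASOR2, ACBD7, EPC1, ZNF438 and ANKRD16. TASOR2, a relative of the TASOR subunit of the HUSH silencing complex, had 313 and 259 CPM in dKO 1 and dKO 2, 190 CPM in tKO 1 and 340 CPM in tKO 2. Its log2 ratio in tKO 1 was -0.59 (counting interval -0.65 to -0.54), and its 2 dKO libraries differed by -0.27. As in every member, the tKO 1 value was below both dKO libraries, and the tKO 2 value of TASOR2 was above both dKO libraries. Against tKO 2 in place of dKO, TASOR2 in tKO 1 had a ratio of -0.84. EPC1, a scaffold of the NuA4 histone acetyltransferase complex, had 34.9 and 27.3 CPM in dKO, 19.8 CPM in tKO 1 and 26.9 CPM in tKO 2, and a ratio of -0.64 in tKO 1. ZNF438 and ANKRD16 were low, with 43 and 72 counts in tKO 1, and their ratios were -0.64 and -0.66 with counting intervals that reached from -1.19 to -0.17 and from -1.07 to -0.29. ACBD7, an acyl-CoA binding domain gene, had 123 and 140 counts in dKO, 77 in tKO 1 and 61 in tKO 2. Both tKO libraries were below both dKO libraries for ACBD7, and its ratio against tKO 2 was 0.32.

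Below the half-dose level, the furthest after CCDC7 were ASB13, MSRB2, DIP2C and CCDC3. ASB13, a substrate receptor of a cullin ubiquitin ligase, had 54.3 and 56.7 CPM in dKO 1 and dKO 2, 20.4 CPM in tKO 1 and 63.6 CPM in tKO 2. It stood at 36.8% of dKO in tKO 1, a log2 ratio of -1.44 with a counting interval from -1.61 to -1.27, and its dKO libraries differed by 0.06. MSRB2, a mitochondrial methionine sulfoxide reductase, had 13.1 and 15.4 CPM in dKO, 5.23 CPM in tKO 1 and 13.8 CPM in tKO 2. DIP2C had 33.5 and 34.3 CPM in dKO, 13 CPM in tKO 1 and 31.2 CPM in tKO 2, and CCDC3, which encodes a secreted coiled-coil protein, 46.5, 49.9, 18.7 and 49.7 CPM in the same order. The ratios of these 3 genes in tKO 1 were -1.42, -1.37 and -1.36. In ASB13, MSRB2, DIP2C and CCDC3 the tKO 1 value was at most 38.8% of dKO while the tKO 2 value was within 0.19 log2 of it.

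**Figure D3:**
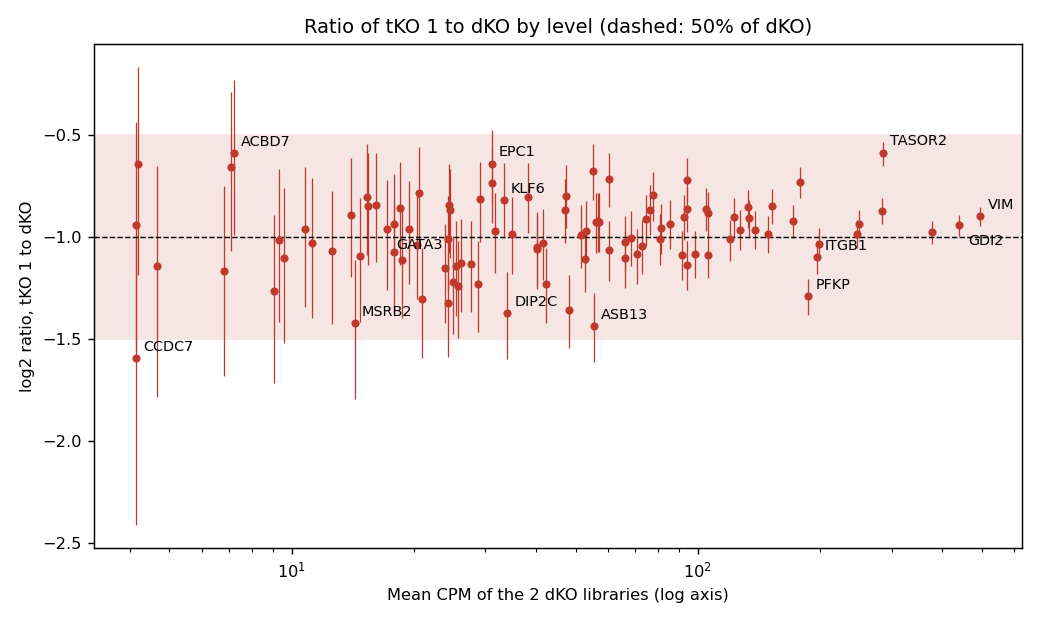
Log2 ratio of CPM in tKO 1 against the dKO mean (vertical axis) of each member by its mean CPM in the 2 dKO libraries (horizontal axis, log scale). Bars are 95% exact binomial intervals for counting error only, the dashed line is the half-dose level and the shaded band reaches 0.5 to each side. The scatter narrows to the right, and CCDC7, with the lowest level per kb, is the point outside the band.

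The scatter around the half-dose level narrowed with the number of counts. Among the 26 members with the fewest counts (means of 55 to 312 per library) the SD of the tKO 1 ratios was 0.223, and 5 departed by more than 0.3. Among the 26 with the most (means of 1449 to 7574) it was 0.136, and TASOR2 was the 1 gene that departed by more than 0.3. The median was -0.99 in the former and -0.93 in the latter, of whose 26 genes 6 lay below -1. The SD of the difference between the dKO libraries was 0.204 in the former and 0.113 in the latter.

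VIM, the most abundant member by CPM and the third by CPM per kb, had 518 and 475 CPM in dKO 1 and dKO 2, 266 CPM in tKO 1 and 487 CPM in tKO 2. Its log2 ratio was -0.90 in tKO 1, with a counting interval from -0.95 to -0.85, or 53.6% of dKO, and -0.03 in tKO 2. ITGB1 had 190, 205, 92.1 and 169 CPM in the same order, ratios of -1.10 (interval -1.18 to -1.02) and -0.22. Both genes thus excluded -1 by counting error in tKO 1, VIM on the upper and ITGB1 on the lower side. The dKO libraries differed by -0.13 for VIM and by 0.10 for ITGB1, and the distance of each gene from -1 was slightly smaller than that difference.

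KLF6, an early-response zinc finger factor, had 32.5 and 34.1 CPM in dKO 1 and dKO 2, 18.8 CPM in tKO 1 and 44.1 CPM in tKO 2. Its log2 ratio in tKO 1 was -0.82 (counting interval -1.01 to -0.64) and in tKO 2 0.40. GATA3, a zinc finger factor of T-cell and epithelial development, had 19.4, 15, 8.68 and 21.6 CPM in the same order and ratios of -0.96 (interval -1.26 to -0.72) and 0.34. For both genes tKO 2 was the highest library and tKO 1 the lowest, and for both the counting interval in tKO 1 included -1. The 2 dKO libraries differed by -0.37 for GATA3 and by 0.07 for KLF6.

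**Figure D4:**
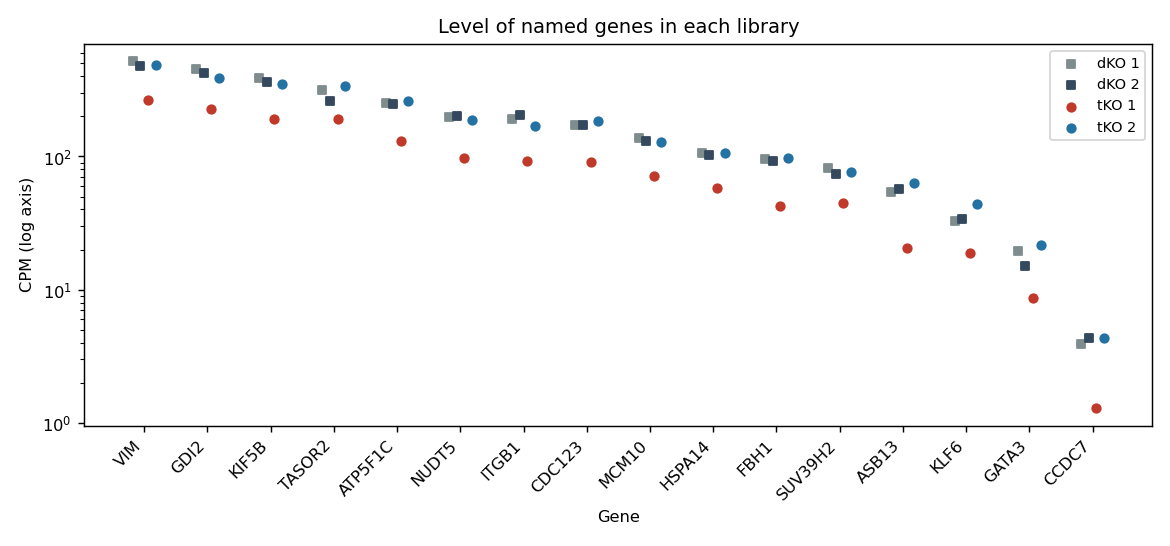
CPM (vertical axis, log scale) in dKO 1, dKO 2, tKO 1 and tKO 2 of 16 named members, ordered by their mean CPM in dKO. Each point is 1 library. The tKO 1 point is the lowest for each of the 16 genes, from VIM at 266 CPM to CCDC7 at 1.29 CPM, and the other 3 points lie closer together.

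By function, the members fell into 6 lists and 10 genes outside them, and each list had its median near -1. Among genes of adhesion, cytoskeleton and polarity (17 of 21 listed genes reached the count minimum) the median tKO 1 ratio was -1.0, the SD 0.109 and the range -1.15 to -0.80. This list held 0 genes departing by more than 0.3. The kinesin heavy chain KIF5B had 391 and 363 CPM in dKO 1 and dKO 2, 191 CPM in tKO 1 and 353 CPM in tKO 2, a ratio of -0.98. The polarity scaffold PARD3 was at -1.05, the GTPase regulators NET1, ARHGAP21 and ARHGAP12 at -0.99, -1.08 and -1.03, and the integrin-linked adhesion protein RSU1 at -1.0. The semaphorin and VEGF co-receptor NRP1 had 79.1, 69.9, 39.4 and 78.9 CPM, a ratio of -0.91. SVIL, which encodes the actin-binding supervillin, had the highest ratio of the list at -0.80, and NEBL, which encodes nebulette, the lowest at -1.15. ABI1, FAM171A1, FRMD4A, JCAD, MPP7 and PLXDC2 lay between these values.

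Genes of transcription and chromatin (19 of 21 listed) had a median of -0.93, an SD of 0.166 and a range from -1.11 to -0.59, and 5 of them lay below -1. The 3 that departed by more than 0.3 were TASOR2, EPC1 and ZNF438, all above. SUV39H2, a histone H3 lysine 9 methyltransferase, had 81.6 and 73.8 CPM in dKO 1 and dKO 2, 44.6 CPM in tKO 1 and 76.9 CPM in tKO 2, a ratio of -0.80. WAC, an adaptor that promotes histone H2B ubiquitination, had 185, 174, 108 and 164 CPM, a ratio of -0.73 with a counting interval from -0.81 to -0.66. The promoter recognition subunit TAF3 was at -0.78, the cAMP-responsive factor CREM at -0.84 and the epithelial-mesenchymal transition repressor ZEB1 at -0.93. Those 5 were the H3K36me3 reader ZMYND11 (-1.09), the Polycomb-related gene SFMBT2 (-1.11), BEND7 (-1.06), MLLT10 (-1.01) and ZNF37A (-1.10). SKIDA1 and ZNF248 had ratios of -0.94 and -0.99.

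The RNA processing and translation list (12 of 13) had a median of -0.94 and a range from -1.22 to -0.72, with 0 genes departing by more than 0.3. CDC123, a factor in assembly of the initiation factor eIF2, had 173 and 171 CPM in dKO 1 and dKO 2, 90.6 CPM in tKO 1 and 186 CPM in tKO 2, a ratio of -0.92. HSPA14, a ribosome-associated HSP70 protein, had 107, 102, 57.6 and 106 CPM, a ratio of -0.86. UPF2 was the highest of the list, with 95.9 and 92.0 CPM in dKO, 57 CPM in tKO 1 and 90.0 CPM in tKO 2, a ratio of -0.72 and a counting interval from -0.83 to -0.62. The lowest was the RNA methyltransferase gene NSUN6 at -1.22. The ribosome biogenesis GTPase gene GTPBP4 was at -0.98, the splicing factors RBM17 and PRPF18 at -0.90 and -1.11, and the RNA-binding proteins LARP4B and CELF2 at -1.01 and -1.09. TRDMT1, MTPAP and RPP38, for a tRNA methyltransferase, the mitochondrial poly(A) polymerase and a subunit of RNase P, had ratios of -0.81, -0.92 and -0.96.

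All 7 listed genes of DNA replication, repair and cell cycle reached the count minimum, with a median of -0.96, an SD of 0.11 and a range from -1.14 to -0.84. MCM10, which acts in the start of replication, had 137 and 130 CPM in dKO 1 and dKO 2, 71.1 CPM in tKO 1 and 129 CPM in tKO 2, a ratio of -0.91. The DNA helicase gene FBH1 had 95.2, 92.5, 42.6 and 97.2 CPM, the lowest ratio of the list. Its counting interval, -1.26 to -1.02, excluded -1. The mitotic kinase gene MASTL was at -0.97, the cullin CUL2 at -1.09, the cyclin CCNY at -0.96, the end-joining nuclease gene DCLRE1C at -0.84 and KIN at -0.87.

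Metabolic and mitochondrial genes (20 of 25) had a median of -0.97 and a wider spread than the previous lists, with an SD of 0.22 and a range from -1.42 to -0.59. Those departing by more than 0.3 were ACBD7 and PRTFDC1 above, and MSRB2 and ECHDC3 below. ATP5F1C had 250 and 248 CPM in dKO 1 and dKO 2, 130 CPM in tKO 1 and 260 CPM in tKO 2, a ratio of -0.94. NUDT5, an ADP-ribose hydrolase gene, had 197, 202, 97.4 and 189 CPM, a ratio of -1.03. Both genes thus stood close to the half-dose level. PFKP, which catalyses the committed step of glycolysis, was lower, with 186 and 189 CPM in dKO, 76.5 CPM in tKO 1 and 203 CPM in tKO 2. Its ratio in tKO 1 was -1.29 with a counting interval from -1.38 to -1.20, or 40.8% of dKO, and its dKO libraries differed by 0.03. PITRM1, the neighbour of PFKP on the other strand, had 105, 108, 57.6 and 107 CPM, a ratio of -0.88. The distance of PFKP from -1 was larger than the difference between its dKO libraries, as it was for 52 of the 104 members. PFKFB3, which sets the level of a glycolytic activator, had a ratio of -0.87.

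In the same list PRTFDC1, a relative of the purine salvage enzyme HPRT1, had 52.7 and 57.9 CPM in dKO 1 and dKO 2, 34.5 CPM in tKO 1 and 52.4 CPM in tKO 2, a ratio of -0.68 (counting interval -0.82 to -0.55). ECHDC3 had 18.9, 23, 8.37 and 23.6 CPM, a ratio of -1.30. The peroxisomal genes PHYH and ACBD5 were at -1.24 and -1.23 and THNSL1 at -1.23, while the mitochondrial protease gene YME1L1, the selenophosphate synthetase gene SEPHS1 and the isoprenoid gene IDI1 were at -0.87, -0.85 and -0.86. AKR1C3, a steroid-converting reductase gene with near-identical neighbours, had 80, 71, 34 and 37 counts and is uncertain for that reason. DHTKD1, HACD1, PDSS1 and PTER had ratios between -1.14 and -0.97.

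Genes of signalling, trafficking and protein turnover (19 of 22) had a median of -1.01, an SD of 0.173 and a range from -1.44 to -0.74. GDI2, which recycles RAB GTPases, had 453 and 426 CPM in dKO 1 and dKO 2, 229 CPM in tKO 1 and 389 CPM in tKO 2, a ratio of -0.94 with a counting interval from -0.99 to -0.89. ASB13 and SEC61A2, a gene for a translocon subunit, departed by more than 0.3 on the lower side. SEC61A2 had 22.8, 25.6, 9.60 and 24.9 CPM, a ratio of -1.32. NMT2, an N-myristoyltransferase gene, had the highest ratio of the list at -0.74, followed by the endosomal sorting gene STAM at -0.80. The kinase genes CAMK1D, PRKCQ and MAP3K8 were at -1.06, -1.07 and -1.27, the small GTPase gene RAB18 at -0.90, the autophagy receptor gene OPTN at -1.01 and the lipid kinase gene PIP4K2A at -0.99. BAMBI, CACNB2, COMMD3, DNAJC1, MINDY3, OTUD1 and USP6NL had ratios between -1.14 and -0.85.

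The 10 members outside the lists had a median of -1.03 and the largest spread, with an SD of 0.293. They held CCDC7, DIP2C, CCDC3 and ANKRD16, which departed by more than 0.3, and WDR37, PROSER2, FAM107B, KIAA1217, ANKRD26 and ODAD2, which had ratios between -1.17 and -0.80.

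**Figure D5:**
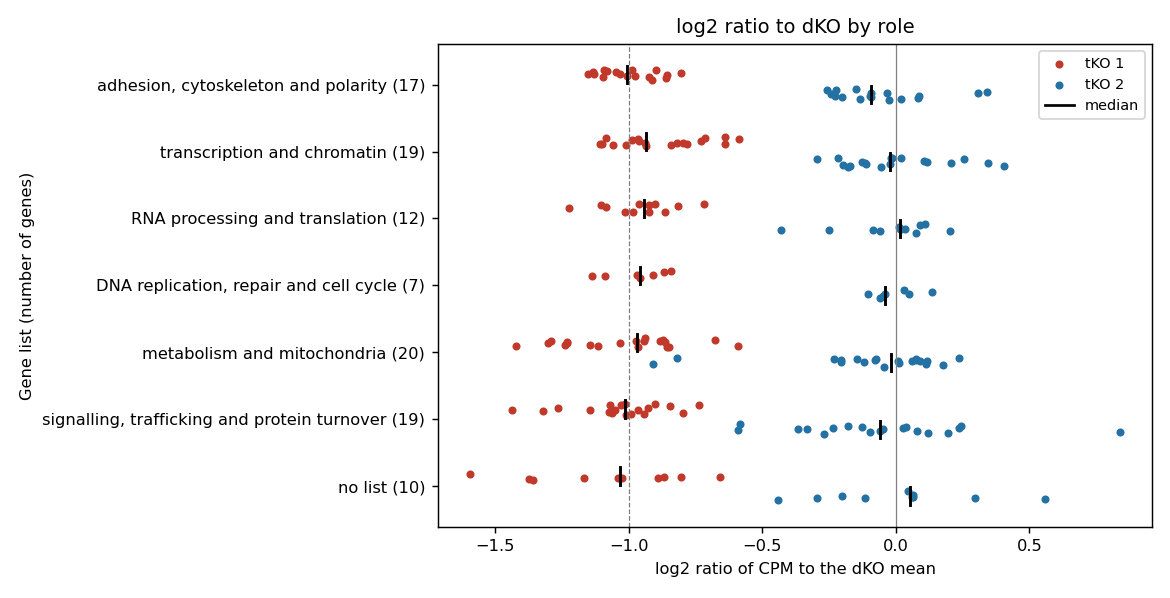
Log2 ratio of CPM against the dKO mean (horizontal axis) of each member in tKO 1 (red) and tKO 2 (blue), by gene list (vertical axis, with the number of members in each). Each point is 1 gene and black bars are medians. The medians in tKO 1 lie between -1.03 and -0.93 in every list, and those in tKO 2 between -0.09 and 0.05.

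In tKO 2, the library with the same genotype that the choice of the arm did not use, the members stood near the dKO level. The median log2 ratio was -0.04, or 97.0% of dKO, the SD 0.242 and the range -0.91 to 0.84. More than 0.5 from dKO were 6 members (5.77%), against 6.15% of the 10983 other protein-coding genes outside a stretch of chromosome 3, below 57 Mb, that was reduced in tKO 2. The tKO 2 value lay below both dKO libraries for 48 members (46.2%) and above both for 31 (29.8%). Among the 10983 other genes these shares were 36.7% and 38.1%. No test was made of that difference. All 6 members more than 0.5 from dKO had a mean count below 200. The higher ones were CACNB2, a calcium channel beta subunit gene with 166 and 174 counts in dKO 1 and dKO 2, 74 in tKO 1 and 271 in tKO 2, and ANKRD16, with 133, 125, 72 and 169 counts. Their log2 ratios in tKO 2 were 0.84 (counting interval 0.61 to 1.08) and 0.56 (0.28 to 0.85). The lower ones were ACBD7 (-0.91), AKR1C3 (-0.82), the deubiquitinase gene OTUD1 (-0.59) and BAMBI, a decoy receptor of TGF-beta signalling (-0.58). For BAMBI the counts were 202, 206, 88 and 120, so both tKO libraries were below both dKO libraries.

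Genes elsewhere in the genome that are paralogues of members, or that work in the same complex, were near the dKO level in tKO 1. Of 35 paralogues listed, 31 passed the expression filter and 30 reached a mean count of 50. These 30 had a median tKO 1 ratio of -0.03 and a range from -0.54 to 0.20, with 1 lower and 0 higher by more than 0.5. The 1 lower was PARD3B, the paralogue of PARD3, with 177 and 200 counts in dKO 1 and dKO 2, 115 in tKO 1 and 197 in tKO 2. PFKL and PFKM, the other phosphofructokinase genes, had 98.2 and 108, and 133 and 145 CPM in dKO, and 96.3 and 124 CPM in tKO 1. Both were within 0.16 log2 of dKO, beside -1.29 for PFKP. SUV39H1, the paralogue of SUV39H2, had a ratio of -0.08, ZEB2 of 0.12, GATA2 of -0.15 and KLF5 of -0.06.

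The integrin alpha chains that pair with ITGB1 had a median tKO 1 ratio of -0.07 over the 9 of 11 with a mean count of 50, with a range from -0.40 to 0.13. ITGA11, under that minimum, had 6, 9, 14 and 10 counts in dKO 1, dKO 2, tKO 1 and tKO 2 and a ratio of 0.91. In tKO 2 ITGA9 had a ratio of -1.13 and lies on chromosome 3. The 4 other F1 subunits of the ATP synthase had a median of -0.03 in tKO 1, beside -0.94 for ATP5F1C. The 11 subunits of the replicative helicase listed with MCM10 had a median of -0.06 and a range from -0.22 to 0.01. The 4 partners of CUL2 had a median of 0.05, and VHL, on chromosome 3, had 2069 and 2188 counts in dKO, 1893 in tKO 1 and 853 in tKO 2. Over the 7 nonsense-mediated decay factors listed with UPF2 the median was 0.14, with a range from -0.04 to 0.28. These partners thus stood near their dKO level in tKO 1 while ITGB1, ATP5F1C, MCM10 and CUL2 stood between 46.7% and 53.2% of theirs and UPF2 at 60.7%.

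In the comparison of both tKO libraries with both dKO libraries, limma called 0 of the 104 members differentially expressed (adjusted p-value below 0.05 and absolute log2 fold change above 1), and of all 15136 genes tested 0.0132%. At an unadjusted p-value below 0.05 there were 17 members, against 3.55% of all genes. The fit includes tKO 1, on whose low values the arm was selected, so nothing is read from this count. The fold changes average a library near 50% of dKO and a library near 97.0%, with a median over members of -0.53. The lowest was -0.88 for AKR1C3, so no member reached the fold change threshold, whatever its p-value. The lowest adjusted p-value of any member was 0.996 by limma. The edgeR quasi-likelihood test, limma-voom and DESeq2 also called 0 members. At an unadjusted p-value below 0.05 they had 12, 21 and 16 members, and 530, 570 and 321 of all 15136 genes. These fits include tKO 1 too, so nothing is read from these counts. VIM had a log2 fold change of -0.46 (standard error 0.25) and ITGB1 of -0.66 (standard error 0.26). With tKO 2 left out, the median log2 fold change over members was -0.97. That comparison is the one by which the arm was chosen, and nothing is read from it either.

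Just outside the count minimum of 50 lay MALRD1 (mean count 43.5), FZD8 (36) and ITIH5 (26.25), with log2 ratios in tKO 1 of -1.05, -1.34 and -0.37. Just inside it lay AKR1C3 (55.5), CCDC7 (60.5) and OTUD1 (63), with ratios of -0.94, -1.59 and -1.14. ITIH5 had 26 and 37 counts in dKO 1 and dKO 2, 21 in tKO 1 and 21 in tKO 2, so that it was equally low in both tKO libraries. What underlies the reduction of the arm in tKO 1 was not tested.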

How the data were processed

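RNA-seq was made from 4 libraries of untreated HAP1 cells, grouped by genotype and title (2 dKO, 2 tKO). Per the labels, polyadenylated RNA was converted to stranded libraries. The authors trimmed reads with cutadapt (1.12) through Trim Galore (0.4.4), removed ribosomal RNA reads with Bowtie (1.2), aligned to GRCh37 and counted uniquely mapped reads over exons with STAR (2.5.2b). The deposited values are these raw read counts per gene, not normalised or pooled. The column of antisense reads, the orientation of this kit, was used, with unstranded counts as an alternative. The methods state independent biological replicates, but not whether they share a clone, so p-values measure the spread between these libraries.

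Positions and symbols came from GENCODE 44 lifted to GRCh37, matched on gene identifiers, and 2282 of 57820 counted genes had no match. The 15136 genes that exceeded 0.5 CPM in 2 or more libraries entered a limma (3.58.1) fit of log2-CPM with a prior count of 2, TMM scaling in edgeR (4.0.16) and R (4.3.3), a mean-variance trend and Benjamini-Hochberg adjustment. The fit was tested on simulated data. Counting intervals are 95% exact binomial intervals of the tKO 1 or tKO 2 count against the summed dKO counts. Members' levels are compared per kb of annotated exon where stated, and otherwise by CPM or counts, which also depend on exon length.

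The members and all gene lists were chosen with earlier results of these data known. Genes named are VIM, ITGB1, KLF6 and GATA3, each departing member, the 5 with the highest CPM per kb in dKO, the first 2 of each list by that measure, those at the limits of the rule, and partners beyond 0.5 log2 in tKO 1. All others were named to account for each member, or for their values after these were seen. A few genes of the lists are not reported here by name. Alternatives were limma-voom, edgeR, DESeq2 (1.42.0), no trend, RLE and total scaling, TMM without the reduced stretches, no filter and CPM above 5, a prior count of 0.25, unstranded counts, a replicate block, a mean count of 200, other bands and references, and leaving out each replicate.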

Additional observations from a re-analysis of the deposited data

How the results depend on the processing

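The median log2 ratio of the members in tKO 1 lay between -0.99 and -0.95 under every alternative tried for it, and that in tKO 2 between -0.05 and -0.02. The number of members departing from the half-dose level, 1 as reported, was 0 among members with a mean count of 200 or more, between 2 and 4 with a dKO library left out, 9 with tKO 2 in place of dKO as the reference and 13 with a band of 0.3. The number over 0.5 from dKO in tKO 2, 6 as reported, was 0 with a mean count of 200 or more and 14 with a band of 0.3. The number of members called by limma lay between 0 and 46 when a library was left out, and 46 was reached without tKO 2. It was 0 under all other tests, scalings and filters. In the main fit no member reached the fold change threshold of 1, the lowest log2 fold change being -0.88 for AKR1C3. The repeated 0 is therefore not read as a sign of stability. Of 203 values for 23 named members under the alternatives, 184 moved by less than the spread between the dKO libraries and 19 by more. Spread here means the SD of the 2 dKO libraries, which is smaller than the difference between them. Values with a dKO library left out could not exceed that spread, since the reference was the mean of the 2 dKO libraries. Most of the 19 came with tKO 2 in place of dKO as the reference. With it KLF6 went from -0.82 to -1.22 and ITGB1 from -1.10 to -0.87. Of the 203 values, 202 stayed negative, the exception being ACBD7 with tKO 2 as reference. Replicate numbers 1 and 2 occur in both groups, but deviations of same-numbered libraries correlated at 0.0581 over genes, and neither labels nor methods pair them. With the replicate block limma called 0 members, with 55 at an unadjusted p-value below 0.05 in place of 17. Of all 15136 genes, 747 were below it with the block and 538 without. Both fits include tKO 1, on whose low values the arm was selected, so nothing is read from these counts. Depth limits single genes: the counting interval of CCDC7, with 72 and 79 counts in the dKO libraries, spans more than 1 log2 unit.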
